A study of Mus musculus with 4 samples.

Results

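The 44 genes described here act in G2 and mitosis, the stages in which a cell that has copied its DNA condenses its chromosomes, builds a spindle, separates the copies and divides. They are 44 of the 32285 genes in each deposited matrix, chosen by symbol and role (cyclin B, spindle, kinetochore, cytokinesis and chromatin genes) with no threshold on their values, though earlier results of these data were known. They were read in single cells sorted from the brains of C57BL/6 female mice that carried GFP-expressing EO771 tumours. EO771 is a mouse mammary carcinoma line, and it was implanted intracranially, so the tumours stand for growth in the brain and not for spread from a breast. Mice had received SCDi or vehicle for 14 days. SCDi is the submitters' name for the treatment, an abbreviation in use for inhibitors of stearoyl-CoA desaturase, the enzyme that makes monounsaturated fatty acids. The sources used here name neither the compound nor its dose. The SCDi brains were pooled from 3 mice and the vehicle brains from another 3, and each pool was sorted by FACS into live CD45- GFP+ cells (the tumour libraries) and live CD45+ GFP- cells (the immune libraries). That makes 1 library per treatment and sort. Mice within a pool cannot be told apart, no test across animals is possible, and the intervals given here cover counting error only.

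Entry into mitosis is driven by CDK1 bound to cyclin B. The pair phosphorylates condensins, lamins, kinesins and kinetochore proteins, and it is shut off when the anaphase-promoting complex, a ubiquitin ligase, marks cyclin B for destruction. The genes of this programme are switched on together late in the cycle by the MMB complex, which holds B-MYB, and by FOXM1. MMB and a related complex, DREAM, act at a promoter element called CHR, whose letters are TTTGAA, often with upstream CCAAT boxes bound by NF-Y. In resting cells DREAM keeps the same promoters silent, so the mRNAs mark cells in or near division.

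Promoters of the set held both motifs more often than those of all genes. RefSeq promoters on GRCm38.p6, each running from 250 bases before to 50 bases after a transcript start, were matched for 38 of the 44 members. A TTTGAA on either strand stood in 28 of those 38 genes, or 73.7%, against 20.2% of all 27025 genes in the table. A CCAAT on either strand stood in 78.9% of the members and 41.1% of all genes, and both motifs together in 60.5% of the members and 7.97% of all genes. At least 2 CCAAT boxes were present in 68.4% of the members and 13.3% of all genes. A match is a string of letters and not evidence of binding. The 120 bases before the transcript start are shown for 6 members that differ in their motifs and in their values below, each 5′ to 3′ on the gene's strand, with the TTTGAA and CCAAT matches of either strand in capitals.
Cdc20, an activator of the anaphase-promoting complex, chr4:118437344-118437463, minus strand: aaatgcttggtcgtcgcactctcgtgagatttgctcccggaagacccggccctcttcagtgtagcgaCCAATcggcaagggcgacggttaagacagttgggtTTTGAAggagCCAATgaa
Cdk1, the mitotic kinase, chr10:69352913-69353032, minus strand: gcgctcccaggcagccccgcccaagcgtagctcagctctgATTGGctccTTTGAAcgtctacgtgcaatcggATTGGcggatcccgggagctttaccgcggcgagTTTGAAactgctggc
Hmgb2, a chromatin protein, chr8:57511723-57511842, plus strand: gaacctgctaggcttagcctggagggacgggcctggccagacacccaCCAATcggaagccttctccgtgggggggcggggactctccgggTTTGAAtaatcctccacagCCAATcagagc
Cks1b, a small partner of CDKs, chr3:89418292-89418411, minus strand: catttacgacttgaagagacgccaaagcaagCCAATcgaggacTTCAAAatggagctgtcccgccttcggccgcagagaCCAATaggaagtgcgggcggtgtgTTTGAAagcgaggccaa
Ccnb1, cyclin B1, chr13:100786487-100786606, minus strand: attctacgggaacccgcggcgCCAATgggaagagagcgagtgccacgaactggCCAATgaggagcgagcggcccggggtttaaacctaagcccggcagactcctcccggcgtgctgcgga
Ckap5, a microtubule polymerase, chr2:91526642-91526761, plus strand: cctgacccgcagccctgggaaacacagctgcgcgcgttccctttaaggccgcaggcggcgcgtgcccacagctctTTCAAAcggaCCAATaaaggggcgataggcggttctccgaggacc
Cdc20 and Hmgb2 hold 1 TTTGAA between 2 CCAAT boxes, and Cdk1 and Cks1b hold 2 of each motif. Ccnb1 has 2 CCAAT boxes and no TTTGAA in this window. Ckap5 has 1 of each.

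The libraries were deep. Tumour barcodes numbered 9034 with SCDi and 7713 with vehicle, with 329888529 and 307846497 UMIs in all. Immune barcodes numbered 6777 with SCDi and 7332 with vehicle. Between 9 and 23 barcodes were shared by any pair of libraries. After filters on genes, mitochondrial UMIs and doublets, tumour cells were gated as barcodes with a UMI of Krt8, a keratin of epithelial cells, and none of Ptprc, which encodes CD45. This left 7921 SCDi cells with a median of 36649 UMIs and 6804 vehicle cells with a median of 41242. Of 10 epithelial tumour markers 3 reached 5 CPM (UMI counts scaled to the same total in every group) in both libraries, led by Krt8 at 1406 CPM with SCDi and 1490 CPM with vehicle, and none was at 0. Of the marker lists of other cell types, those of T cells, NK cells and neutrophils summed to between 1.36 and 5.39 CPM in the SCDi cells and between 0.85 and 5.80 CPM in the vehicle cells. The highest sums came from 1 gene each that is not limited to leukocytes. These were the macrophage list at 779 CPM with SCDi and 816 CPM with vehicle, nearly all of it Cd63, and the plasmacytoid list at 749 CPM with SCDi and 909 CPM with vehicle, mostly Bst2.

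In tumour cells the whole set was higher with SCDi. Member UMIs summed to 5067 CPM in SCDi tumour cells and 4064 CPM in vehicle tumour cells, a log2 ratio of 0.32 (95% counting interval 0.31 to 0.32). Of the 44 members 43 reached 5 CPM in at least 1 of the libraries, and all 43 were higher in the SCDi library, where 41.6% of all 9477 genes at that level were higher. Past 1.2-fold, the size used here for a call, were 31 members, against 5.81% of all genes called higher, and no member was called lower, against 10.8% of all genes. The median log2 ratio of the members was 0.33, and that of all genes -0.038. Psrc1, a regulator of spindle microtubules, had 3 UMIs in SCDi cells and 2 in vehicle cells and was not compared.

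The CDK1 group held the member with the highest ratio. Cdca3, which helps degrade the CDK1 inhibitor WEE1 in frog egg extracts, had 158 CPM in SCDi cells and 112 CPM in vehicle cells, a log2 ratio of 0.49 (0.47 to 0.52). Ccnb1, the cyclin that activates CDK1, had 22993 UMIs or 79.1 CPM with SCDi and 15638 UMIs or 56.9 CPM with vehicle (log2 ratio 0.48, 0.45 to 0.51). Their counting intervals overlap. The kinase had a lower ratio than its cyclins, as Cdk1 had 39828 UMIs or 137 CPM with SCDi and 31719 UMIs or 115 CPM with vehicle (0.25, 0.23 to 0.27), while Ccnb2, cyclin B2, had a log2 ratio of 0.46. Cdc25c, a phosphatase that activates CDK1, had a log2 ratio of 0.42, Gtse1, a G2 regulator of p53, 0.47, and the CDK partners Cks1b and Cks2 0.37 and 0.33. Of the 8 members of this group 7 were past 1.2-fold, all but Cdk1. The related gene Cks1brt had 70 UMIs with SCDi and 58 with vehicle, where Cks1b had 78588 with SCDi and 57758 with vehicle.

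Both members that act with the anaphase-promoting complex were past 1.2-fold. Cdc20, which brings substrates to the complex, had 100.5 CPM in SCDi cells and 72.0 CPM in vehicle cells (log2 ratio 0.48, 0.46 to 0.51). Ube2c, the ubiquitin-conjugating enzyme that serves it, had 393 CPM with SCDi and 316 CPM with vehicle (0.32, 0.30 to 0.33).

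All 3 members of the chromosomal passenger complex, which corrects faulty attachments of chromosomes to the spindle, were past 1.2-fold as well. Birc5, the survivin subunit, had 326 CPM with SCDi and 238 CPM with vehicle (0.45, 0.44 to 0.47). Aurkb, the kinase of the complex, had 46.5 CPM with SCDi and 38.1 CPM with vehicle (0.29, 0.25 to 0.32), and Cdca8, the borealin subunit, had a log2 ratio of 0.34. Among the other mitotic kinases Ttk, the checkpoint kinase MPS1, had 11.9 CPM in SCDi cells and 9.42 CPM in vehicle cells (0.34, 0.27 to 0.42). Bub1, a checkpoint kinase at the kinetochore, had 57.2 CPM with SCDi and 48.7 CPM with vehicle (0.23, 0.20 to 0.26), short of 1.2-fold. Aurka, the centrosome kinase, had a log2 ratio of 0.33.

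At the kinetochore, which ties chromosomes to microtubules, 4 of 5 members were past 1.2-fold. Cenpe, a kinesin that carries chromosomes to the spindle equator, had 71.9 CPM in SCDi cells and 52.6 CPM in vehicle cells (0.45, 0.42 to 0.48). Hjurp, the chaperone that loads the centromeric histone CENP-A, had 84.2 CPM with SCDi and 78.5 CPM with vehicle (0.10, 0.073 to 0.13) and was the exception. Ndc80, Nuf2 and Cenpf lay between 0.30 and 0.36.

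The spindle group was the most spread. Of its 10 measured members 7 were past 1.2-fold. Tacc3, which stabilises the microtubule bundles at kinetochores, had 66.1 CPM in SCDi cells and 48.6 CPM in vehicle cells (0.44, 0.41 to 0.48). Its binding partner Ckap5 had 106 CPM with SCDi and 103 CPM with vehicle (0.045, 0.021 to 0.068), the lowest ratio of the 43 members. The motor Kif11 and the spindle assembly factor Tpx2 also stayed short of 1.2-fold, at 0.20 and 0.24. Tubb4b, a beta-tubulin, had a log2 ratio of 0.41. Of the members that bind or shape spindle microtubules, Ckap2l stood at 0.39, Hmmr at 0.36, the microtubule depolymerase Kif2c at 0.35, Nusap1 at 0.30 and Dlgap5 at 0.27. Tubulin genes are alike in sequence, and how reads that match several were counted is not given in the sources used here.

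In cytokinesis the group split into a pair on either side of 1.2-fold. Kif23, the kinesin of the centralspindlin complex at the midzone, had 53.0 CPM with SCDi and 38.6 CPM with vehicle (0.46, 0.42 to 0.49). Anln, the actin-binding anillin of the contractile ring, had 87.2 CPM with SCDi and 82.7 CPM with vehicle (0.077, 0.051 to 0.10). Ect2, the exchange factor that activates RhoA at the cleavage site, had a log2 ratio of 0.18, and Kif20b, a kinesin of late cytokinesis, 0.31.

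Of the 8 chromatin and nuclear envelope members 4 were past 1.2-fold. Mki67, the Ki-67 coat of mitotic chromosomes and the usual marker of proliferation, had 10237 UMIs or 35.2 CPM in SCDi cells and 7119 UMIs or 25.9 CPM in vehicle cells (0.44, 0.40 to 0.49). Top2a, the topoisomerase that untangles sister DNA, had 89087 UMIs or 307 CPM with SCDi and 72233 UMIs or 263 CPM with vehicle (0.22, 0.21 to 0.24). Anp32e, a chaperone that removes the histone H2A.Z, had 129 CPM with SCDi and 121 CPM with vehicle (0.091, 0.069 to 0.11). The intervals of Mki67 and Top2a, both used to mark dividing cells, lay apart. Hmgb2, which bends DNA, and Cdca2, which brings a phosphatase to chromosomes, had log2 ratios of 0.30 each, and the lamina protein gene Tmpo 0.29. The condensin gene Smc4 (0.23) and Lbr, the lamin B receptor (0.21), were short of 1.2-fold.

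**Figure D1:**
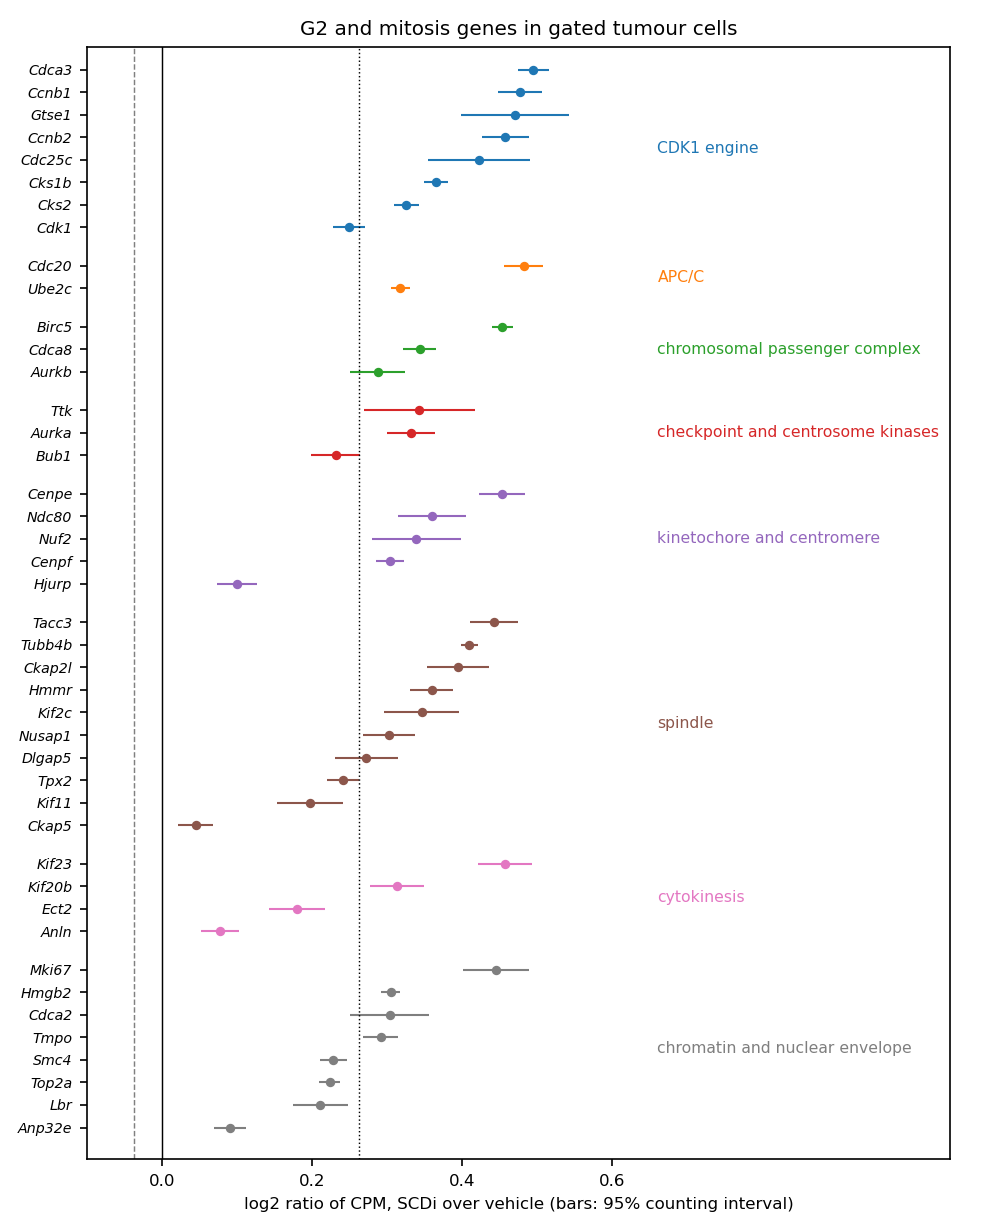
Log2 ratios of CPM, SCDi over vehicle, in gated tumour cells for the 43 measured members, ordered within each role; bars are 95% counting intervals, the dotted line is 1.2-fold and the dashed line the median of all genes at -0.038. Every point lies to the right of 0, from Ckap5 at 0.045 to Cdca3 at 0.49.

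Tumour lines often carry extra or missing chromosomes, so members were also read against the other genes of their chromosome, an alternative chosen after the data were seen. Chromosome medians ran from -0.13 on chromosome 8 to 0.022 on chromosome 15. With each member's own chromosome median taken off, all 43 stayed above 0, 35 were past 1.2-fold and the median was 0.36. Of the chromosomes that hold measured members only chromosome 15 had a median above 0, so this step by itself raised the ratios of members elsewhere. The share of all genes past 1.2-fold after the step is not given.

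Genes of the same programme outside the set gave like values. Of 55 further mitosis genes 54 were higher with SCDi and 34 past 1.2-fold, with a median log2 ratio of 0.31 beside -0.038 over all genes. Cdkn3, a phosphatase that removes the activating phosphate from CDKs, was the highest, at 51.6 CPM with SCDi and 29.5 CPM with vehicle (0.81), followed by the centromere gene Cenpm (0.56). The lowest were Rangap1, the GTPase activator of RAN (0.043), and the kinetochore gene Zwint (-0.020). Of 37 S phase genes, which serve DNA replication, 36 were higher and 16 past 1.2-fold, with a median of 0.24. Dscc1, of a clamp loader (0.52), and Rrm2, of ribonucleotide reductase (0.47), were the highest, and the helicase gene Blm (0.037) and the licensing factor gene Cdt1 (-0.061) the lowest.

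Taken as lists, the regulators of the programme lay closer to the median of all genes, but some single genes did not. Of 21 genes of its transcriptional control 13 were higher, where 41.6% of all genes were, with a median of 0.031. Past 1.2-fold were 1 higher and 2 lower, against 5.81% and 10.8% of all genes. E2f7, which encodes a repressor of E2F targets (0.28), and Mybl2, which encodes B-MYB (0.26), were the highest. Foxm1, which encodes FOXM1, followed at 0.26 (0.22 to 0.30), short of 1.2-fold. The pocket protein genes Rb1 (-0.31) and Rbl2, whose product p130 is part of DREAM (-0.40), were the lowest, with Rbl2 at 8.78 CPM in SCDi cells and 11.6 CPM in vehicle cells. A further list held 32 genes that brake or promote steps of the cell cycle, including mitotic entry and exit, and 29 were measured. Of these 18 were higher, 5 past 1.2-fold and none called lower, with a median of 0.067. Gadd45b, a stress gene that inhibits CDK1 (0.51), and Cdkn2c, of the CDK4 inhibitor p18 (0.41), were the highest. The CDK inhibitor genes Cdkn1b (-0.12) and Cdkn1a (-0.15) were the lowest, and Cdkn1a, which encodes p21, had 279 CPM in SCDi cells and 310 CPM in vehicle cells.

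The higher level was not spread evenly over cells. With every cell thinned to 10000 UMIs, which kept 7000 SCDi and 6091 vehicle cells, the member UMIs of a cell averaged 48.7 ± 29.1 with SCDi and 37.7 ± 30.1 with vehicle (SD over cells of 1 library). The lower quartile was 24 UMIs in SCDi cells and 11 in vehicle cells, and the median 47 in SCDi cells and 29 in vehicle cells. The upper end differed little, with the 99th percentile at 120 UMIs in SCDi cells and 116 in vehicle cells. Vehicle cells formed a peak of low values, since 16.7% of them had 5 to 9 member UMIs, against 6.77% of SCDi cells. Between 35 and 39 member UMIs stood 5.87% of SCDi cells and 3.74% of vehicle cells.

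**Figure D2:**
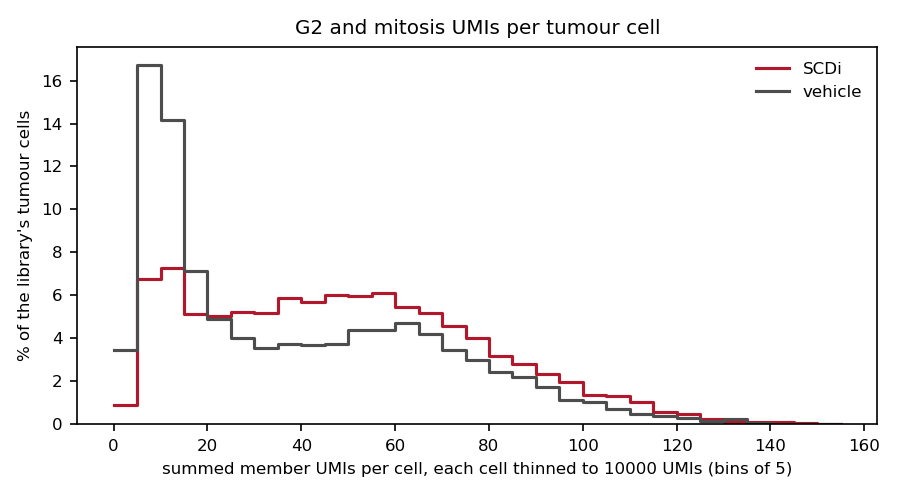
Summed member UMIs per gated tumour cell after thinning each cell to 10000 UMIs, in bins of 5, as a percentage of the 7000 SCDi cells (red) and of the 6091 vehicle cells (grey). The vehicle line peaks at 5 to 9 UMIs with 16.7% of cells, where the SCDi line is at 6.77%, and above 20 UMIs the SCDi line is mostly the higher one.

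At a thinner sampling of 2000 UMIs per cell, 86.3% of 7239 SCDi cells and 71.2% of 6458 vehicle cells had at least 3 member UMIs (Clopper-Pearson 85.5% to 87.1% for SCDi and 70.1% to 72.3% for vehicle). The difference was 15.1 percentage points (13.8 to 16.5). Left out as shallower were 682 SCDi and 346 vehicle cells. Without thinning nearly every cell passes that level, and the difference was 0.028 points. Because the libraries differed in depth, the shares were also taken within bands of a cell's total UMIs. Among cells of 20000 to 40000 UMIs 85.5% of SCDi cells and 63.6% of vehicle cells had at least 3 member UMIs, and above 60000 UMIs 93.8% of SCDi cells and 86.2% of vehicle cells. The SCDi share was the higher one in all 4 bands. A UMI of Mki67 or Top2a was found in 40.03% of SCDi cells and 32.5% of vehicle cells at 2000 UMIs, and in 84.0% of SCDi cells and 76.4% of vehicle cells unthinned. For that pair the deepest band did not differ beyond counting error, with 48.5% of SCDi cells and 50.5% of vehicle cells. Single mRNAs followed the same direction, as Cdc20 was found in 17.0% of SCDi and 12.2% of vehicle cells and Ccnb1 in 12.8% of SCDi and 9.18% of vehicle cells.

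Cells were then set apart by other mitosis genes and not by the members. Of the cells thinned to 10000 UMIs, 92.5% with SCDi (91.9% to 93.1%) and 79.4% with vehicle (78.3% to 80.4%) had a UMI of at least 5 of the 55 further mitosis genes. Within those cells the members differed less, as 41 of 43 were higher in SCDi, 12 were past 1.2-fold and the median log2 ratio was 0.20. With all UMIs of the same cells in place of thinned ones 39 were higher, where 39.1% of all genes were, and 10 past 1.2-fold, where 3.71% of all genes were, with a median of 0.16. With the thinned UMIs Gtse1 (0.37), Kif23 (0.36), Tacc3 (0.36) and Cdc25c (0.36) were the highest, and Ckap5 (-0.031) and Anln (-0.027) the lowest. The remaining cells, 7.47% with SCDi and 20.6% with vehicle, carried 9.44 ± 4.28 member UMIs per 10000 with SCDi and 8.65 ± 3.87 with vehicle.

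Members differed in how far their mRNA was limited to cells with mitosis genes. In SCDi cells Cenpf, a large protein of the outer kinetochore, was 35.9-fold higher in the cells with at least 5 further mitosis genes than in the others, and Hmmr, a spindle-binding protein, 38.9-fold. In vehicle cells the folds were 39.0 for Cenpf and 32.1 for Hmmr. Anp32e was 1.60-fold higher there with SCDi and 1.503-fold with vehicle. Lbr was 1.99-fold higher with SCDi and 1.59-fold with vehicle, and Ckap5 2.37-fold with SCDi and 2.11-fold with vehicle. Ckap5 and Anp32e, with low ratios between SCDi and vehicle, are thus among the members least limited to such cells. Other members did not pair the 2 traits. Tubb4b (2.67-fold with SCDi, 2.32-fold with vehicle) and Tmpo (2.54-fold with SCDi, 2.29-fold with vehicle) were little limited too. Both were past 1.2-fold between SCDi and vehicle. Anln, whose ratio was low, was 11.2-fold higher in such cells with SCDi and 8.34-fold with vehicle. Genes that followed the summed members most closely over cells were Prc1, of the spindle midzone, and Cenpa, the centromeric histone, with Pearson r of 0.72 and 0.71 over 7000 SCDi cells and 0.78 for both over 6091 vehicle cells. Plk1, the polo-like kinase, and Ccna2, cyclin A2, stood among the next 3 in both libraries, with Knl1 in the SCDi and Racgap1 in the vehicle library. These cells share a library and their depth, so the values are a description.

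Clusters of tumour cells did not all share the direction. Clustered without the members, the genes of the 4 further lists and many histone and ribosomal protein genes, the cells fell into 18 clusters. Other genes that vary with the cell cycle were not barred, and summed member levels ran from 1060 to 8082 CPM over these clusters. Of the clusters 13 had at least 50 cells in both libraries. The median member ratio was above 0 in 9 of those 13 and below 0 in 4, and ran from -0.21 to 0.79. In the 4 that were below 0, numbered 3, 4, 7 and 9, only 2, 5, 5 and 8 of the 43 members were higher with SCDi. No share of all genes is given for single clusters, so these counts describe the members alone. Cluster 4 held 1238 SCDi and 53 vehicle cells. Averaged with equal weight over the 13, all 43 members were higher, where 50.6% of all genes were, and 8 past 1.2-fold, where 2.98% of all genes were, with a median of 0.17. In that clustering 8 of the 18 clusters drew at least 80% of their cells from 1 library.

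The cells were therefore clustered again without the genes past 1.2-fold between the libraries as well, a choice made after the data were seen, and the cluster numbers from here on are those of the second clustering. Of 18 clusters 16 had at least 50 cells in both libraries, and the median member ratio was above 0 in 15 and below 0 in 1. The medians ran from -0.37 in cluster 17, with 80 SCDi and 54 vehicle cells, to 0.85 in cluster 3. Clusters 3, 5 and 12 had low member levels in both libraries, with summed levels of 2012, 1491 and 1324 CPM in SCDi cells and 1340, 1362 and 1118 CPM in vehicle cells. They held 3.80%, 5.15% and 1.84% of the SCDi cells, against 14.2%, 10.7% and 5.36% of the vehicle cells. Cluster 14, as low in level at 1242 CPM with SCDi and 1061 CPM with vehicle, had the opposite imbalance, with 3.81% of SCDi cells and 0.37% of vehicle cells. Cluster 1, at 5645 CPM with SCDi and 5109 CPM with vehicle, held 15.5% of SCDi cells and 2.85% of vehicle cells.

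Read at one mix of clusters, the difference between the libraries was smaller. With the SCDi level of each cluster weighted by the vehicle mix the summed level was 4388 CPM against 4064 CPM in vehicle cells, a log2 ratio of 0.11. With the vehicle levels at the SCDi mix it was 5067 CPM in SCDi cells against 4723 CPM, a log2 ratio of 0.10. The observed log2 ratio was 0.32. The clusters themselves differed widely in member level, so a common mix also evens out the share of cells high in members. Averaged with equal weight over the 16 clusters, 41 of 43 members were higher, where 50.1% of all genes were, and 8 past 1.2-fold, where 3.39% of all genes were, with a median of 0.17. With 1 pool of mice per treatment, a shift in the mix by treatment and one between pools cannot be told apart. Cluster 2 held shallow barcodes, with a median of 1097 UMIs in SCDi cells and 1744 in vehicle cells.

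**Figure D3:**
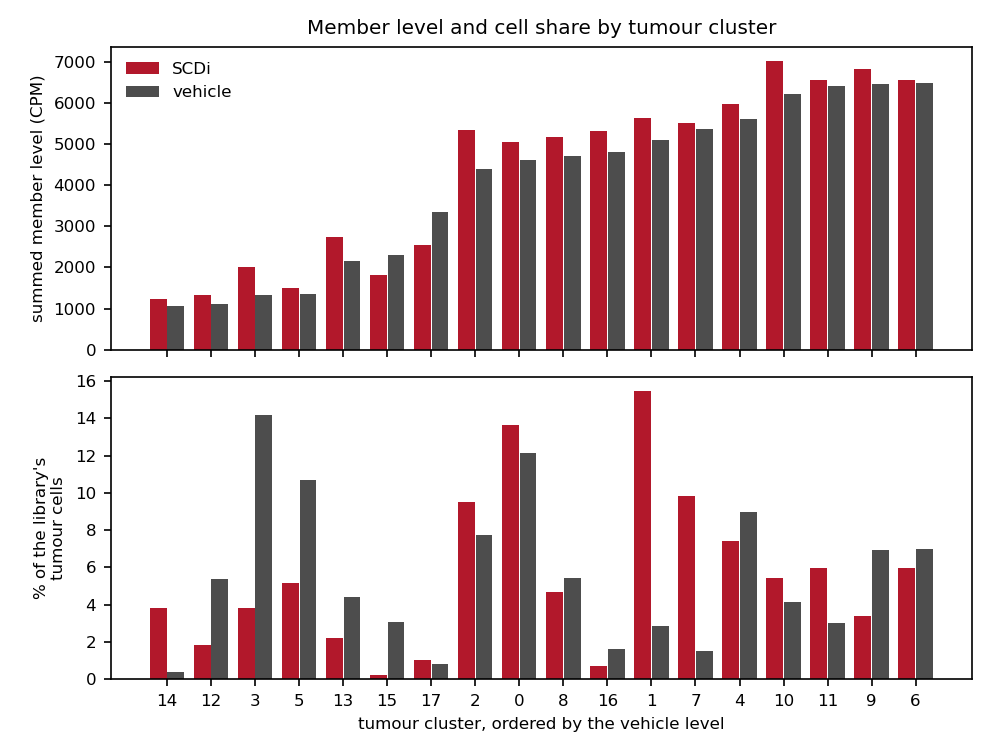
Summed member level in CPM (top) and share of each library's gated tumour cells (bottom) in 18 clusters made without the listed cell cycle genes and without genes past 1.2-fold between the libraries, SCDi in red left of vehicle in grey, ordered by the vehicle level. Clusters 3, 5 and 12, at 1118 to 1362 CPM in vehicle cells, hold larger shares of the vehicle library, while clusters 1 and 7 hold larger shares of the SCDi library.

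Leukocytes were gated by the largest share of a type's markers detected in a cell, with at least 3 markers. The gates placed 5760 SCDi and 6146 vehicle cells, and 9 types reached 50 cells and 100000 UMIs under each treatment. Type 1 dendritic cells, neutrophils and mast cells or basophils were too few to compare. The members took 0.112% of all UMIs in the SCDi immune library and 0.113% in the vehicle one, against 0.510% in the SCDi and 0.409% in the vehicle tumour library. The difference seen in tumour cells was not shared by all leukocytes. Member medians were above 0 in macrophages, cDC2, NK and B cells and below 0 in microglia, monocytes, migratory dendritic cells, plasmacytoid dendritic cells and T cells. The log2 ratio of the summed members had the other sign in T cells (0.053, 0.030 to 0.076). It was 0.027 (-0.0057 to 0.059) in monocytes, 0.026 (-0.097 to 0.15) in plasmacytoid and -0.0092 (-0.087 to 0.068) in migratory dendritic cells. In T cells the median over all genes was -0.044.

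T cells had the highest member level of the 9 types, at 4300 CPM in 264 SCDi cells and 4144 CPM in 438 vehicle cells, close to that of tumour cells. Of 43 measured members 21 were higher, where 43.5% of all genes were, and 22 lower with SCDi, with a median log2 ratio of -0.019. Past 1.2-fold were 4 higher, against 16.5% of all genes, and 7 lower, against 22.2%. Mki67 had 182 CPM in SCDi T cells and 188 CPM in vehicle T cells (-0.047, -0.16 to 0.064), and Top2a 212 CPM with SCDi and 223 CPM with vehicle (-0.075, -0.18 to 0.028), so neither differed beyond counting error. Ube2c was the lowest of the members of at least 20 CPM, at 140 CPM with SCDi and 208 CPM with vehicle (-0.57), and Tacc3 the highest, at 51.4 CPM with SCDi and 37.4 CPM with vehicle (0.46). The S phase genes lay elsewhere in T cells, as 36 of 37 were higher with SCDi and 33 past 1.2-fold, with a median of 0.53. A UMI of Mki67 or Top2a was found in 20.8% of SCDi T cells (16.1% to 26.2%) and 22.1% of vehicle T cells (18.3% to 26.3%), thinned to 2000 UMIs.

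In microglia, the resident macrophages of the brain, the members had the opposite sign to tumour cells, but not in every choice of cells. They summed to 1788 CPM in 329 SCDi cells and 1997 CPM in 251 vehicle cells, a log2 ratio of -0.16 (-0.20 to -0.12). Of 42 measured members 9 were higher, against 45.6% of all genes, and 33 lower. There were 12 past 1.2-fold lower and 1 higher, against 17.4% and 12.2% of all genes, and the median log2 ratio was -0.11. Mki67 had 60.5 CPM in SCDi microglia and 91.4 CPM in vehicle microglia (-0.59, -0.79 to -0.40). Top2a had the other sign, at 111 CPM with SCDi and 94.6 CPM with vehicle (0.23, 0.069 to 0.39), and was the highest member of at least 20 CPM. The lowest was Ckap2l, a spindle pole protein, at 64.9 CPM with SCDi and 127 CPM with vehicle (-0.97). Few cells carried these counts, since the top 5 cells held 26.0% of the member UMIs of SCDi microglia and 23.4% of those of vehicle microglia. A UMI of Mki67 or Top2a was found in 6.08% of SCDi microglia (3.75% to 9.23%) and 9.64% of vehicle microglia (6.27% to 14.0%), a difference of -3.56 points whose interval of -8.50 to 1.052 includes 0. T cell markers in the microglia gate summed to 39.0 CPM with SCDi and 114 CPM with vehicle, and monocyte markers to 134 CPM with SCDi and 237 CPM with vehicle. Without the cells that had a UMI of a T cell marker, 61 with SCDi and 81 with vehicle, members summed to 1954 CPM with SCDi and 2025 CPM with vehicle (-0.052, -0.095 to -0.0081), 22 of 42 were higher and the median was 0.0022. That alternative was chosen after the data were seen, and no share of all genes is given for it.

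Macrophages, with 2694 SCDi and 2645 vehicle cells, had members at 839 CPM with SCDi and 761 CPM with vehicle (0.14, 0.12 to 0.16). Of 33 measured members 27 were higher, against 44.8% of all genes, with 13 past 1.2-fold higher and 1 lower, against 4.89% and 13.02%. Mki67 had 21.2 CPM in SCDi macrophages and 17.3 CPM in vehicle macrophages (0.30), and Top2a 27.1 CPM with SCDi and 24.6 CPM with vehicle (0.14). Tubb4b was the highest member of at least 20 CPM (0.37) and Cks2 the lowest (-0.29). The median log2 ratio was 0.21 over the 33 measured members, but 0.028 over the 10 members of at least 20 CPM. Yet the share of cells with a UMI of Mki67 or Top2a was 3.26% with SCDi (2.61% to 4.01%) and 3.15% with vehicle (2.51% to 3.91%), and the median member ratio was -0.0061 when each cell was given the same weight. SCDi macrophages were deeper, at a median of 19568.5 UMIs against 16565 in vehicle macrophages, and the part of depth in the result was not tested. Of the 10 epithelial markers Krt8 stood at 6.25 CPM in SCDi and 9.48 CPM in vehicle macrophages, and the whole list at 11.3 CPM with SCDi and 17.3 CPM with vehicle; their part was not tested.

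Monocytes, migratory dendritic cells and plasmacytoid dendritic cells held few members above 5 CPM, at 12, 16 and 12. In 1611 SCDi and 1585 vehicle monocytes 5 of the 12 were higher, against 44.7% of all genes. Of these 1 was past 1.2-fold, against 7.47%, and 3 were past 1.2-fold lower, against 11.97%. Mki67 had 92 UMIs in SCDi and 148 in vehicle monocytes, and Top2a 81 in SCDi and 151 in vehicle monocytes, each in 63 to 74 cells. Cks2 was the lowest member of at least 20 CPM (-0.34) and Tubb4b the highest (0.47). In migratory dendritic cells 7 of 16 were higher, against 41.5% of all genes. There 4 members were past 1.2-fold higher and 5 lower, against 13.2% and 21.4% of all genes. Of the members of at least 20 CPM Smc4, a condensin subunit, was the lowest (-0.41) and Tubb4b the highest (0.42). At lower levels Ndc80 stood at -0.77 and Mki67 at 2.08. Mki67 had 27 UMIs in 20 SCDi cells and 11 UMIs in 9 vehicle cells, and Top2a 22 UMIs with SCDi and 48 with vehicle. In plasmacytoid dendritic cells 6 of 12 were higher, against 50.4% of all genes, and 3 members were past 1.2-fold each way, against 24.2% higher and 24.4% lower of all genes. Of the members of at least 20 CPM Hmgb2 was the lowest there (-0.33) and Tubb4b again the highest (0.40). Mki67 and Top2a had 10 UMIs or fewer in each library.

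In cDC2, NK and B cells most members were higher with SCDi, but a few cells held much of their UMIs. In cDC2, conventional dendritic cells of type 2, members summed to 1041 CPM in 119 SCDi cells and 582 CPM in 138 vehicle cells, and 28 of 29 measured members were higher, against 53.9% of all genes. Past 1.2-fold were 26 higher, against 27.7% of all genes, and none lower, against 22.5%. The top 5 cells held 47.4% of those UMIs with SCDi and 15.1% with vehicle. Of the members of at least 20 CPM Ube2c was the highest (3.53) and Cks2 the lowest (-0.17). Ube2c had 60 UMIs in 5 SCDi cells and 5 UMIs in 4 vehicle cells. Mki67 had 55 UMIs in 14 SCDi cells and 32 UMIs in 21 vehicle cells, and Top2a 98 UMIs in 11 SCDi cells and 28 UMIs in 8 vehicle cells. With each cell given the same weight the median member ratio was 0.61, against 1.41 over summed UMIs. The epithelial list summed to 125 CPM with SCDi and 99.9 CPM with vehicle in cDC2. Cdh1, E-cadherin, stood at 80.9 CPM with SCDi and 81.4 CPM with vehicle, and Krt8 at 0 in both. Of the 10 epithelial markers 8 were at 0 with SCDi and 7 with vehicle, and Epcam is also a marker of the cDC2 gate. The part of the epithelial list in the result was not tested.

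In NK cells 36 of 41 members were higher, against 53.3% of all genes, with 30 past 1.2-fold and 1 past it lower, against 29.6% and 21.01%, and the top 5 cells at 64.0% of member UMIs in the SCDi library and 33.7% in the vehicle library. Of the members of at least 20 CPM Hmmr was the highest (2.40) and Hjurp the lowest (-0.23). Hmmr rested on 52 UMIs in 6 SCDi cells and 11 UMIs in 3 vehicle cells. Below that level Ndc80 was lower still, at 8.44 CPM with SCDi and 18.0 CPM with vehicle (-1.06). Mki67 had 83.3 CPM in SCDi NK cells and 42.2 CPM in vehicle NK cells, and Top2a 92.9 CPM with SCDi and 52.9 CPM with vehicle. With each cell given the same weight the median member ratio in NK cells was 0.084, against 0.85 over summed UMIs. Macrophage markers in the NK gate summed to 5928 CPM with SCDi and 2197 CPM with vehicle, and microglia markers to 258 CPM with SCDi and 65.6 CPM with vehicle. Without the cells that held at least 3 macrophage markers, an alternative chosen after the data were seen, 75 SCDi and 89 vehicle NK cells were left. Their members summed to 905 CPM with SCDi and 989 CPM with vehicle (-0.13, -0.31 to 0.054), with 9 of 22 measured members higher and a median of -0.27. No share of all genes is given for the cells left, so that count describes the members alone. Over all gated NK cells S phase genes had the opposite sign to the members, with 3 of 34 higher, 27 past 1.2-fold lower and a median of -0.52.

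In B cells 40 of 43 members were higher, against 49.02% of all genes, with 35 past 1.2-fold and 1 past it lower, against 26.1% and 28.3%, and the top 5 cells held 69.0% of member UMIs with SCDi and 68.5% with vehicle. Of the members of at least 20 CPM Cenpf was the highest (1.66) and Hjurp the lowest (-0.30). Mki67 had 124 CPM in SCDi B cells and 48.5 CPM in vehicle B cells, and Top2a had 146 CPM with SCDi and 76.7 CPM with vehicle. The median member ratio was 0.67 over summed UMIs and 0.72 with each cell given the same weight. The counting intervals treat each UMI as its own draw and do not cover the chance of catching such a cell.

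**Figure D4:**
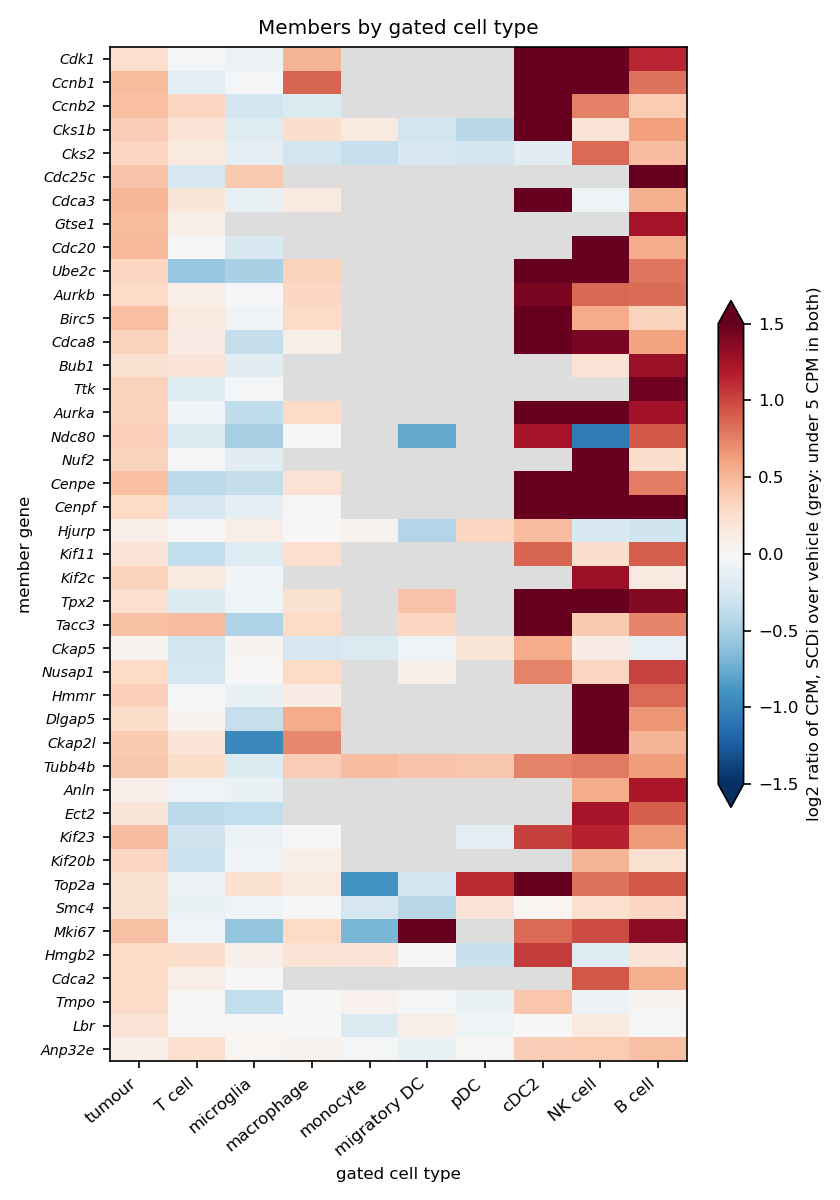
Log2 ratios of CPM, SCDi over vehicle, for 43 members (rows, by role) in tumour cells and 9 gated leukocyte types (columns); grey marks members under 5 CPM in both libraries and the colour scale ends at 1.5 each way. Tumour cells are red throughout, microglia mostly blue, and in Tubb4b every column but microglia is red.

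Counted by cells after thinning, the intervals of the treatments overlapped in those 3 types. A UMI of Mki67 or Top2a was found in 3.36% of SCDi and 5.07% of vehicle cDC2, 6.29% of SCDi and 5.43% of vehicle NK cells, and 7.38% of SCDi and 3.70% of vehicle B cells. Without thinning the B cell shares were 19.7% with SCDi and 9.86% with vehicle, a difference of 9.83 points (0.88 to 18.9). Neutrophils, a type that does not divide once mature, gave 1 of 48 SCDi cells (2.08%, 0.053% to 11.1%) and 1 of 66 vehicle cells (1.52%, 0.038% to 8.16%), with medians of 4665 UMIs with SCDi and 3640 with vehicle. Whether those single cells held free RNA or were wrongly gated was not tested. The shares of both treatments lay within the neutrophil intervals in every compared leukocyte type but T cells and vehicle microglia, so at this depth they could not be told from the neutrophil level. That includes the migratory cells, where 9 of 255 SCDi cells (3.53%) and 5 of 479 vehicle cells (1.04%) gave a difference of 2.49 points (0.14 to 5.63).

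**Figure D5:**
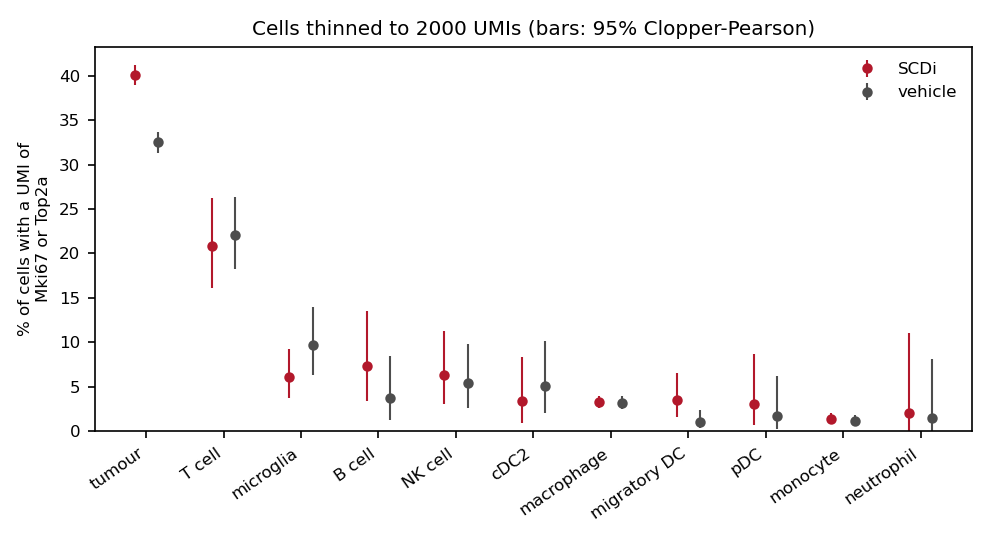
Percentage of cells with a UMI of Mki67 or Top2a after thinning to 2000 UMIs, by gated type, SCDi in red left of vehicle in grey; bars are 95% Clopper-Pearson intervals. Tumour cells (40.03% and 32.5%) and T cells (20.8% and 22.1%) lie above all other types, and the tumour intervals are the ones that stand clearly apart.

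Some members had many UMIs in leukocyte types in which few cells held a UMI of Mki67 or Top2a after thinning. In neutrophils Hmgb2 made up 45.8% of member UMIs with SCDi and 37.7% with vehicle, and Lbr 12.01% with SCDi and 14.6% with vehicle. At least 3 member UMIs were found in 52.1% of SCDi and 36.4% of vehicle neutrophils, and that count was not used for leukocytes. Monocytes drew 29.6% of their member UMIs from Hmgb2 and 20.5% from Tmpo, a lamina-associated protein, with SCDi, and 26.4% and 20.1% from them with vehicle. Tubb4b was higher with SCDi in tumour cells and in 8 of the 9 leukocyte types, from 0.28 in T cells to 0.78 in NK cells, and lower in microglia (-0.20, -0.35 to -0.051). It was singled out after its values were seen.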

How the data were processed

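Single cells were measured by 10x Genomics 3′ v3 RNA sequencing. The authors deposited raw UMI counts per gene and barcode, made with Cell Ranger 7.1.0 on mm10 per the submitters' processing notes; whether intronic reads were counted is not given in the sources used here. Barcodes with at least 300 genes and at most 15% mitochondrial UMIs were kept. Doublet scores came from 2 simulated doublets per cell, and the top 0.8% per 1000 barcodes were removed, a fixed rate. Tumour cells had a Krt8 UMI, no Ptprc UMI and at most 3 endothelial markers. UMIs were summed over cells and scaled to CPM; log2 ratios add 0.5 counts and carry an exact conditional binomial 95% interval. A gene was measured at 5 CPM in either library. Shares carry Clopper-Pearson intervals, and PCR duplicates are removed by UMIs. Clusters used Leiden (leidenalg 0.10.2, resolution 1.0, 2000 genes, 30 components). Promoters came from RefSeq and gene positions for the chromosome medians from GENCODE on GRCm38.

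Named with both values were Mki67, Top2a, Cdk1, Ccnb1 and the highest and lowest member of each role; in leukocytes, Mki67, Top2a and the extremes at 20 CPM; of other lists, the 2 highest and 2 lowest. The members and lists were chosen with earlier results of these data known. The intervals were tested on simulated data. Per the labels' protocol the authors used Seurat in R studio.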

Additional observations from a re-analysis of the deposited data

Results flagged for a closer look

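Microglia ran against the tumour cells. Their median member log2 ratio was -0.11, where that of tumour cells was 0.33, and 33 of 42 measured members were lower with SCDi in microglia while 43 of 43 were higher in tumour cells. The difference between the cell types was not tested, since each treatment has 1 pool per sort. The result rests on 329 SCDi and 251 vehicle microglia, whose median depth was 14033 UMIs with SCDi and 19327 with vehicle, and the part of depth in it was not tested. Without the cells that had a UMI of a T cell marker the microglia median was 0.0022, with 22 of 42 members higher. No share of all genes is given for the microglia left.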

How the results depend on the processing

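No paired analysis was possible because each group is 1 pooled library. Of 232 repeats under other settings 205 stayed within the counting bounds of the value as reported, or within 1.5 times for a count or share of members. For a median those bounds are the median lower and median upper limit of the single members, which is wider than an interval of the median itself. In microglia they ran from -0.45 to 0.17. The microglia medians of -0.43 with cells counted equally and 0.0022 without T cell marker UMIs therefore both counted as within bounds. In tumour cells the median member ratio was 0.37 when each cell counted equally, 0.17 as a mean over clusters made without the listed cell cycle genes (8 members past 1.2-fold), 0.17 when those clusters also left out genes past 1.2-fold (8 members), 0.20 in cells with at least 5 further mitosis genes (12 members), and 0.36 minus the chromosome median. The difference in the share of tumour cells with member UMIs was 4.67 points at 5000 UMIs, 0.028 without thinning, 4.09 for at least 1 member UMI, 18.5 for at least 5, and 21.9 in cells of 20000 to 40000 UMIs, an alternative chosen after seeing the data. With cells counted equally the macrophage median reversed to -0.0061 (45.5% of measured members higher), the cDC2 median was 0.61, the NK cell median 0.084 (53.7% higher), and 4.76% of members were higher in microglia; the cause was not tested. At 20 CPM the cDC2 median was 0.75 and 28.6% of members were higher in migratory dendritic cells. The macrophage median at 20 CPM was 0.028, against 0.21 as reported. Without thinning the Mki67 or Top2a share differed by -8.67 points in microglia, 1.79 in macrophages and 6.21 in migratory dendritic cells. The B cell difference unthinned was 9.83 points. After the data were seen, cells with markers of another type were left out. Without T cell marker UMIs 52.4% of members were higher in microglia. Without cells of 3 or more macrophage markers the NK cell median reversed to -0.27 (40.9% higher). No share of all genes is given for either choice of cells, and the cause was not tested. The number of dividing cells limits cDC2, NK and B cells, and depth the thinned shares.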
